A study of Homo sapiens with 8 samples.

Results

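The transcripts of 51 genes of mitosis and the G2/M transition were examined in MDA-MB-157 cells, an established human breast cancer line labelled as negative for the estrogen receptor. The genes were chosen by symbol from knowledge of their function, with earlier results of these data known. All 51 were found among the 21059 genes of the deposited expression table. All 8 libraries came from this 1 cell line, with no genetic change. The low glucose group held 4 libraries from cells kept in 5 mM glucose for 48 hours, and the high glucose group held 4 libraries from cells kept in 25 mM glucose for the same time. By the study's methods, cells of both groups were first conditioned in low glucose and then kept in medium without serum, and the contrast addresses how a glucose level that models diabetes changes these cells. The labels name no osmotic control for these libraries, and glucose and osmolarity cannot be told apart here. The sources do not state whether the 4 replicates of a group were separate experiments, and the p-values then measure only the spread between these libraries. In bulk RNA, more cells in G2 or mitosis and more RNA of these genes per cell cannot be told apart. From an assay of BrdU incorporation that included this line, the study reported that high glucose did not enhance proliferation.

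A cell enters mitosis when CDK1, bound to cyclin B, is switched on by CDC25 phosphatases, which undo the inhibition set by WEE1. Polo-like and Aurora kinases then drive spindle building and chromosome condensation, the spindle checkpoint holds the cell until every kinetochore is attached, and the anaphase-promoting complex (APC/C) with CDC20 ends the arrest by marking securin and cyclin B for destruction. Most of the genes are transcribed late in the cell cycle. Their promoters commonly carry the cell cycle genes homology region (CHR), an element bound by the MuvB complex. In quiescent cells MuvB is part of the DREAM repressor, with a p130 or p107 protein and E2F4, and in G2 it works with B-MYB and FOXM1 as an activator. The CCAAT box, bound by NF-Y, is commonly found upstream of the CHR in such promoters.

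The letters of both elements were found in the promoters of many of the genes. Their order and spacing were not scored in the counts that follow. Promoters from RefSeq (GRCh38.p14), 250 bases before to 50 bases after the start site, were matched by symbol for 44 of the 51 genes and gave 54 promoters, since some genes have several start sites. The genes without a match were BIRC5, RACGAP1, UBE2C, AURKA, TPX2, TTK and FOXM1. The CHR was searched as TTTGAA or TTTAAA and the NF-Y box as CCAAT, each on both strands and with overlaps allowed. A match is a description of the letters and not a binding site. The CHR letters were found in 42 of the 54 promoters (77.8%), against 24.0% of all 35116 promoters of the same length and 16.9% of the 13007 promoters of genes with a mean of at least 5 CPM (counts per 1000000 reads) in these cells. CCAAT was found in 40 (74.1%), against 34.6% and 35.0%. Both stood in 33 (61.1%), against 9.27% of all promoters and 6.57% of those of genes of at least 5 CPM. Counted once per gene, both stood in 30 of the 44 (68.2%), against 11.2% of all 27305 genes with a promoter.

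The 100 bases before the start site are printed below for genes on which the results turn, 5′ to 3′ on the gene's own strand, with the CHR letters (the searched hexamers or TTCAAA, the reverse complement of the first) and the NF-Y box (CCAAT or ATTGG) in capitals. The cyclin B genes CCNB1 (chr5:69167050-69167149, plus strand) and CCNB2 (chr15:59105046-59105145, plus strand) are shown because their promoters are alike and their responses were not. CKS2 (chr9:89311095-89311194, plus strand) and CKS1B (chr1:154974581-154974680, plus strand) had the largest increases of the 51 with all libraries. PLK1 (chr16:23678789-23678888, plus strand), PRC1 (chr15:90994536-90994635, minus strand), HMMR (chr5:163460532-163460631, plus strand), KIF4A (chrX:70290004-70290103, plus strand) and MKI67 (chr10:128126424-128126523, minus strand) show how the elements vary in number and order. CDC25B (chr20:3786851-3786950, plus strand, the first of 4 start sites listed) is shown because its transcript fell, and the 100 bases before this start hold neither set of letters. Promoters at other CDC25B start sites do hold matches, CCAAT at −73 and −169 and TTTAAA at 32 from the start.
CCNB1: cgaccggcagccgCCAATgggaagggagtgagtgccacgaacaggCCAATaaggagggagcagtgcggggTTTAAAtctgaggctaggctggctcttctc
CCNB2: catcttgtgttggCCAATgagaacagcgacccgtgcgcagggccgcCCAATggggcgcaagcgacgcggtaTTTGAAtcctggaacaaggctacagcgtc
CKS2: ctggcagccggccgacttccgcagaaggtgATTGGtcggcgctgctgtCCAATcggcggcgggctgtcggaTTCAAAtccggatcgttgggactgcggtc
CKS1B: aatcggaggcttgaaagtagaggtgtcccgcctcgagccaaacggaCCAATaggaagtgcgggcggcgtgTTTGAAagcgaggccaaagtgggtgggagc
PLK1: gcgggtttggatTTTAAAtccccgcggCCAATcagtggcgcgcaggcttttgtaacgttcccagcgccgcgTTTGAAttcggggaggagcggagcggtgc
PRC1: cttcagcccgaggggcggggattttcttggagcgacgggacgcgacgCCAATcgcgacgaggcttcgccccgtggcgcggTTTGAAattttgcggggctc
HMMR: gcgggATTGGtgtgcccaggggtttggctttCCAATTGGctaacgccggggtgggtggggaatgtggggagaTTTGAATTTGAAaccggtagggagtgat
KIF4A: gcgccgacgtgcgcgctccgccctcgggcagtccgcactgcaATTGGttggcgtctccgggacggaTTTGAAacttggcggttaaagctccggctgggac
MKI67: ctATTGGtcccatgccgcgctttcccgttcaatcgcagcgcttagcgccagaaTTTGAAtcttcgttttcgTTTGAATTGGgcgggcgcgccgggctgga
CDC25B: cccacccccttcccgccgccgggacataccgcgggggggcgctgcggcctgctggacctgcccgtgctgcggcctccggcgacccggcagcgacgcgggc

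In CCNB1 and CCNB2, a pair of CCAAT boxes lay upstream of 1 CHR, which was TTTAAA in the first and TTTGAA in the second. PLK1 carried TTTAAA upstream and TTTGAA downstream of its CCAAT box. HMMR carried TTTGAA directly repeated, and in MKI67 the second TTTGAA shared its last base with ATTGG. Over all promoters of the 44 genes, 66 CHR matches were counted, with a median first base at −30 from the start site, and 22 of them began between −35 and −10. The 86 CCAAT matches had their median at −82, and 26 of them began between −70 and −45. Both ranges were picked by hand and were not counted in other promoters, so these counts have no background. Promoters of start sites that lie close together overlap, so some letters were counted more than once. An example is the TTTAAA of PTTG1, listed at −29 and at −84. In the 100 bases before the start, a window chosen after the matches were seen, both elements stood in 22 of 54 promoters (40.7%), against 1.70% of all promoters and 1.32% of those of genes of at least 5 CPM.

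**Figure D1:**
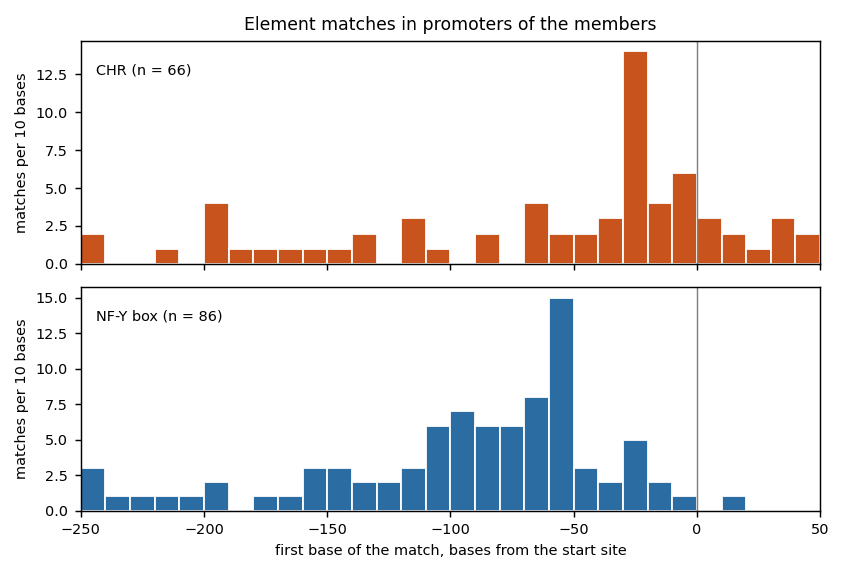
Matches of the CHR (66 matches, upper panel) and of the NF-Y box (86 matches, lower panel) in 54 promoters of 44 mitosis and G2/M genes. The x axis is the first base of the match in bases from the start site (vertical line), and the y axis is the number of matches in each 10 bases. CHR matches were most frequent shortly before the start site, and NF-Y box matches lay further upstream.

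Depth was similar across libraries. Each library held an estimated 9721650 to 12482550 reads in the table, 3 reads corresponded to 0.212 to 0.267 CPM, and the lowest library of any of the 51 genes held an estimated 88.0 reads. High glucose replicate 1 stood apart from the other libraries of its group. The mean squared difference between replicates, relative to counting noise, was 11.1 to 18.8 in pairs with this library, 2.57 to 4.36 in the other high glucose pairs and 1.45 to 2.25 in low glucose pairs. Results are therefore given with and without this library where it moved them. The estrogen receptor gene ESR1 was listed at 0 to 0.170 CPM, in keeping with the label, whereas the progesterone receptor gene PGR was listed at 4.33 to 5.95 CPM. The mesenchymal gene VIM was at 4060 to 4116 CPM at low glucose and lower, at 2856 to 3282 CPM, at high glucose, and the epithelial keratin genes KRT8 (126 to 138 and 76.4 to 101 CPM) and KRT18 (228 to 238 and 156 to 196 CPM) and the receptor gene ERBB2 (62.4 to 65.0 and 35.7 to 41.2 CPM) were also lower there. The epithelial gene EPCAM went the other way, from 3.93 to 4.93 CPM at low glucose and 6.58 to 7.62 CPM at high glucose. CDH1, also epithelial, overlapped between the groups (0.663 to 1.10 and 0.330 to 1.41 CPM). The leukocyte gene PTPRC was at 0 to 0.178 CPM. The endothelial gene PECAM1 was at 0.911 to 1.24 CPM at low glucose and 1.51 to 2.84 CPM at high glucose. The stromal gene DCN was at 299 to 313 CPM at low glucose and 120 to 146 CPM at high glucose, ACTA2 was at 75.5 to 81.8 and 55.3 to 60.9 CPM, and their part in the results was not tested.

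The mitosis and G2/M genes were, with few exceptions, higher at high glucose. In limma on log2(CPM + 1), with p-values adjusted over all genes by the Benjamini-Hochberg method, 47 of the 51 rose at an adjusted p under 0.05, 1 fell (CDC25B) and 3 did not pass (NUF2, SPC25 and KIF20A). Among all genes, 22.0% rose and 24.8% fell, and 33.6% of the 11297 genes with a mean of at least 5 CPM rose. When only those 11297 genes were fitted, 4043 rose and 4077 fell. All 51 genes had a mean above 5 CPM in both groups. The median log2 change of the 51 was 0.63, with a range from −0.36 to 1.14, against −0.01 over all genes. As a ratio of group means, the median was 1.56 and the range 0.780 to 2.24. The median gene of the 51 had a larger log2 change than 92.4% of all genes. That rank includes genes under 5 CPM, whose log2(CPM + 1) changes are drawn toward 0 by the added 1. The rank among genes of at least 5 CPM was not computed. The summed level of the 51 was 3252, 3206, 3231 and 3195 CPM in low glucose libraries 1 to 4 and 4649, 4651, 4785 and 4855 CPM in high glucose libraries 1 to 4, with no overlap.

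For 48 of the 51 genes the 4 high glucose libraries all lay above the 4 low glucose libraries, which was the case for 20.9% of all genes and for 32.5% of genes of at least 5 CPM. For CDC25B all 4 lay below, as for 23.6% of all genes and for 3666 of the 11297 genes of at least 5 CPM. The separation was narrow in places: for KIF20A the highest low glucose library was at 30.8 CPM and the lowest high glucose library was higher by less than 1%. Without high glucose replicate 1, 47 of the 51 genes rose (22.8% of all genes did) with a median log2 change of 0.62. A trend on transcript length was also removed from each library, for the 14227 genes with a known length and a mean of at least 1 CPM. In that fit 48 of the 51 rose, as did 33.9% of those genes. With the filter at 1 CPM alone, 48 of the 51 also rose, as did 4525 of 14372 genes.

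**Figure D2:**
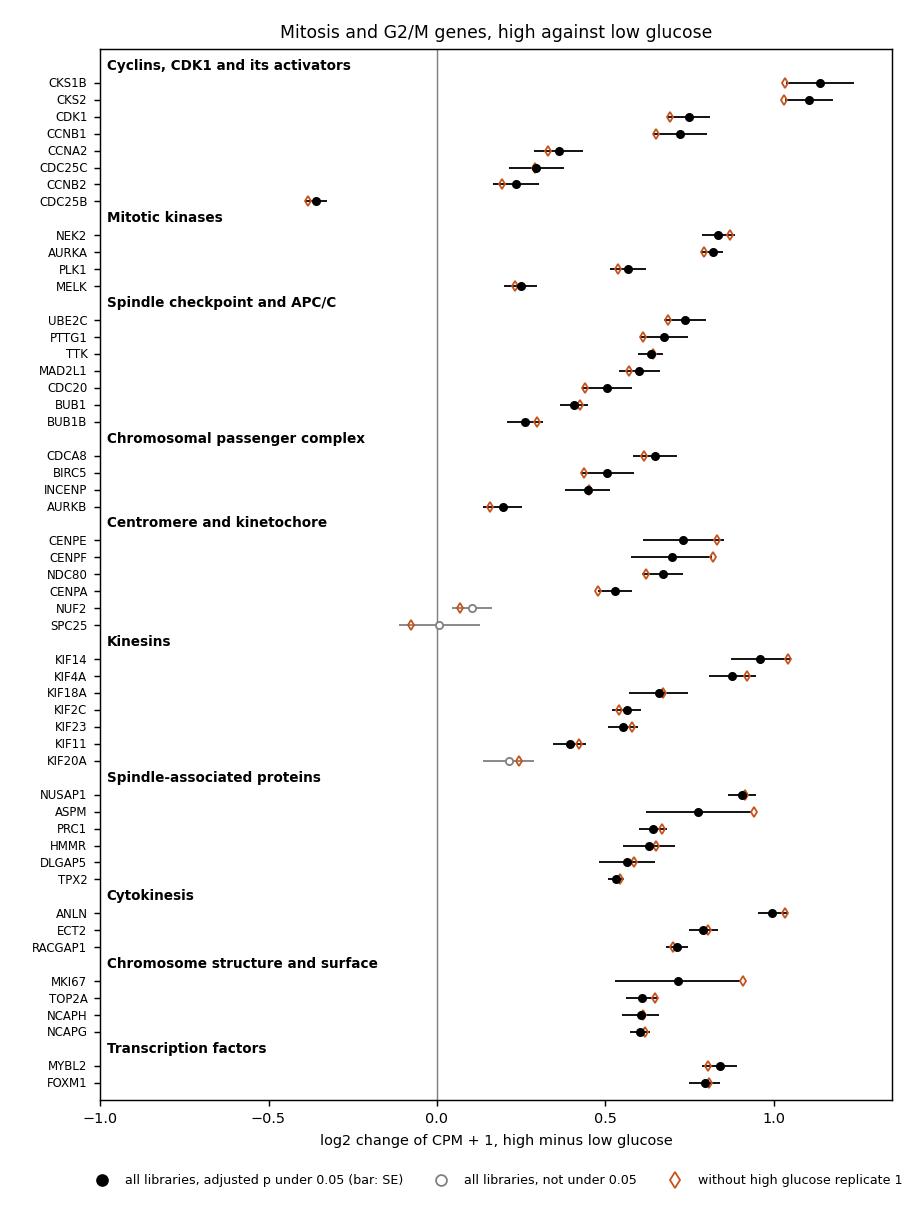
The log2 change of CPM + 1, high minus low glucose, on the x axis for each of the 51 genes, grouped by role on the y axis. Circles are the fit to all 8 libraries with bars of 1 SE, filled where the adjusted p was under 0.05, and diamonds are the fit without high glucose replicate 1. Of the 51 circles, 50 lie to the right of 0, from 0.01 for SPC25 to 1.14 for CKS1B, and CDC25B lies to the left at −0.36.

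The cyclins, CDK1 and the proteins that act on CDK1 held the largest rises with all libraries and the only fall. Of these 8 genes 7 rose. CKS1B and CKS2 encode the small subunits that bind cyclin-dependent kinases and steer them to substrates, and with all libraries these were the only genes of the 51 with a log2 change of at least 1. CKS2 was at 75.7, 73.1, 72.3 and 75.9 CPM at low glucose and 187, 157, 149 and 153 CPM at high glucose (log2 change 1.10, SE 0.07, adjusted p = 2.3e-05). CKS1B was at 49.8, 45.7, 49.8 and 46.2 CPM at low glucose and 132, 99.2, 101 and 96.6 CPM at high glucose (log2 change 1.14, SE 0.10, adjusted p = 9.9e-05). In both genes the groups were far apart, and high glucose replicate 1 was the highest library. Without that library both log2 changes were 1.03, and KIF14 (1.04) and ANLN (1.03) also reached 1. Of the CKS1B transcript's 31-base words, 46.9% also occur in transcripts of other genes, most often its copy CKS1BP3, so its reads could be split between them. Per kilobase of transcript CKS2 reached the highest level of the 51 genes at high glucose, 262 CPM per kilobase.

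CDK1, the kinase that starts mitosis, was at 48.0, 51.6, 49.9 and 50.3 CPM at low glucose and 95.5, 80.4, 78.2 and 85.2 CPM at high glucose (log2 change 0.75, SE 0.06, adjusted p = 7.5e-05). Its cyclin partner CCNB1 was at 73.0, 66.2, 70.2 and 62.9 CPM at low glucose and 131, 109, 106.5 and 106.4 CPM at high glucose (log2 change 0.72, SE 0.08, adjusted p = 2.9e-04, and 0.65 without high glucose replicate 1). The other B-type cyclin, CCNB2, was at 46.3, 40.6, 44.6 and 38.8 CPM at low glucose and 54.9, 48.0, 48.7 and 49.2 CPM at high glucose (log2 change 0.24, SE 0.07, adjusted p = 0.0257). The groups did not overlap in any of these genes, but the low and high libraries of CCNB2 nearly met, and its adjusted p was 0.0503 without high glucose replicate 1, 0.0681 without low glucose replicate 2 and 0.0575 without low glucose replicate 4. The ratio of CCNB1 to CCNB2 was 1.58 to 1.63 within the low glucose libraries and 2.16 to 2.38 within the high glucose libraries, whereas that of CCNB1 to CDK1 overlapped between groups (1.25 to 1.52 and 1.25 to 1.37). These ratios, and those given for other pairs, were chosen after the values were seen, are ratios of CPM without a correction for length, and are descriptions with no test. CCNA2, the cyclin of S phase and early mitosis, rose from 38.8 ± 3.21 to 50.1 ± 3.69 CPM (SD, n = 4 per group, log2 change 0.36, adjusted p = 0.00540).

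The CDC25 phosphatases, which remove the inhibitory phosphates from CDKs, diverged. CDC25B, which acts on CDK1 at the onset of mitosis, was at 576, 577, 572 and 572 CPM at low glucose and 472, 433, 454 and 432 CPM at high glucose. It fell by 0.36 on the log2 scale (SE 0.03, adjusted p = 1.1e-04) and by 0.38 without high glucose replicate 1, and its low glucose libraries differed among themselves by an SD of only 2.40 CPM. It was also the most abundant of the 51 genes per kilobase of transcript at low glucose, at 184 CPM per kilobase, and was at 144 at high glucose. CDC25C was far less abundant per kilobase, at 4.27 CPM per kilobase at low glucose. It had 8.94 ± 1.08 CPM in low and 11.1 ± 0.137 CPM in high glucose (log2 change 0.29, adjusted p = 0.0219, and 0.0512 without high glucose replicate 4). CDC25A, which is not among the 51 genes and also acts on CDK2 in S phase, rose from 5.15 to 12.5 CPM (log2 change 1.15, adjusted p = 5.4e-04). The CDK1 inhibitor WEE1 rose too, to 34.9 ± 2.71 CPM (log2 change 0.77, adjusted p = 5.7e-05).

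PLK1, AURKA, NEK2 and MELK were grouped as mitotic kinases, apart from CDK1, the checkpoint kinases and AURKB, which are given with their complexes. All 4 rose, with a median log2 change of 0.69. AURKA, which builds the spindle poles, was at 94.4, 92.3, 93.9 and 93.5 CPM at low glucose and 174, 159, 168 and 162 CPM at high glucose (log2 change 0.82, SE 0.03), and its adjusted p of 2.5e-06 was the smallest of the 51 genes. NEK2, a centrosomal kinase, rose from 14.6 ± 0.423 to 26.9 ± 1.67 CPM (log2 change 0.84), and PLK1, the polo-like kinase of mitotic entry, rose from 28.9 ± 1.82 to 43.3 ± 2.21 CPM (log2 change 0.57). MELK, a kinase commonly high in proliferating breast tumors, rose less, from 36.5 ± 2.28 to 43.5 ± 1.55 CPM (log2 change 0.25, adjusted p = 0.00495). The level of AURKA relative to TPX2, the spindle protein that activates it, was 0.828 to 0.856 within low glucose libraries and 0.965 to 1.11 within high glucose libraries, with no overlap, and TPX2 itself rose from 111 ± 1.42 to 161 ± 4.56 CPM (log2 change 0.53, adjusted p = 4.6e-06).

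The spindle checkpoint and APC/C genes all rose, 7 of 7, with a median log2 change of 0.60. Those that end the checkpoint arrest were among them: CDC20, the APC/C activator, was at 43.5 ± 0.996 and 62.5 ± 6.78 CPM (log2 change 0.51), PTTG1, the securin that APC/C destroys, at 45.2 ± 2.22 and 72.8 ± 7.08 CPM (0.67), and UBE2C, the enzyme that passes ubiquitin to APC/C substrates, at 45.1, 44.2, 41.5 and 46.4 CPM and 82.7, 68.4, 71.7 and 75.5 CPM (0.74, adjusted p = 8.3e-05). The sensors of unattached kinetochores rose by unequal amounts, with log2 changes of 0.63 for TTK, 0.60 for MAD2L1, 0.41 for BUB1 and 0.26 for BUB1B. For PTTG1, 23.2% of the transcript's 31-base words are shared with other genes, most often PTTG3P, and its level is uncertain to that extent.

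Among 17 subunits and regulators of the complex outside the 51 genes, 3 rose, 5 fell and 9 did not pass, and the median log2 change was −0.07. These shares lay near those over all genes (22.0% rose and 24.8% fell). All 17 had a mean of at least 5 CPM, and of all genes at that level a larger share, 33.6%, rose. When only genes at that level were fitted, 4077 of 11297 fell, and 6 of the 17 did. In the fit to all genes, between 3 and 5 of the 17 fell when any 1 library was left out, with 3 in each case except without low glucose replicate 4 or high glucose replicate 1. The 3 that rose were UBE2S (147 to 293 CPM, log2 change 0.97), which works beside UBE2C, FBXO5 (21.9 to 39.0 CPM, 0.80), an inhibitor of the complex, and the subunit CDC23 (61.4 to 74.5 CPM, 0.27). The 5 that fell were the subunits ANAPC5 (75.9 to 50.9 CPM, log2 change −0.57), ANAPC11 (−0.55), ANAPC16 (−0.33), ANAPC15 (−0.31) and CDC16 (−0.29). FZR1, the activator of the complex after mitosis, was at 34.8 and 32.7 CPM (log2 change −0.09, adjusted p = 0.35).

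The 4 genes of the chromosomal passenger complex, which corrects wrong kinetochore attachments, all rose but by unequal amounts, and the kinase rose least. AURKB was at 25.1, 25.9, 28.0 and 24.1 CPM at low glucose and 32.1, 29.0, 28.0 and 29.5 CPM at high glucose (log2 change 0.20, SE 0.06, adjusted p = 0.0272). Its highest low glucose library and its lowest high glucose library were nearly equal, and its call was lost when low glucose replicate 1, 2 or 4 or high glucose replicate 4 was left out (adjusted p from 0.0560 to 0.0696). CDCA8, the borealin that recruits the complex to centromeres, rose from 32.2 ± 2.72 to 50.9 ± 2.42 CPM (log2 change 0.65, adjusted p = 1.7e-04), BIRC5 (survivin) from 105 ± 5.97 to 150 ± 15.9 CPM (0.51) and the scaffold INCENP from 22.9 ± 1.65 to 31.5 ± 2.15 CPM (0.45). The ratio of AURKB to CDCA8 was 0.717 to 0.858 in low glucose libraries and 0.554 to 0.601 in high glucose libraries, without overlap. That of AURKB to INCENP overlapped between the groups. The ratio of AURKA to AURKB was 3.35 to 3.88 in low glucose libraries and 5.42 to 5.99 in high glucose libraries.

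The Ndc80 complex, the 4-protein rod that holds microtubules at the kinetochore, was split in its transcripts. NDC80 was at 29.9, 29.5, 27.6 and 27.2 CPM at low glucose and 51.1, 44.6, 46.0 and 42.6 CPM at high glucose (log2 change 0.67, SE 0.06, adjusted p = 1.1e-04). Its direct partner NUF2 was at 10.2, 10.2, 10.8 and 9.83 CPM at low glucose and 12.1, 10.1, 11.3 and 10.9 CPM at high glucose (log2 change 0.10, SE 0.06, adjusted p = 0.199). SPC25 was at 9.34, 9.03, 8.32 and 8.96 CPM at low glucose and 10.9, 7.89, 7.42 and 10.0 CPM at high glucose (log2 change 0.01, SE 0.12, adjusted p = 1.0). Every high glucose library of NDC80 lay above every low glucose library, whereas those of NUF2 and SPC25 overlapped with low glucose. SPC24, which is not among the 51 genes and was looked at after these values were seen, was at 18.4 ± 1.34 and 15.3 ± 1.96 CPM (log2 change −0.26, adjusted p = 0.0620, and −0.32 with adjusted p = 0.0235 without high glucose replicate 1). The ratio of NDC80 to NUF2 was 2.56 to 2.94 in low glucose libraries and 3.89 to 4.41 in high glucose libraries. That of NDC80 to SPC25 was 3.04 to 3.32 at low and 4.24 to 6.20 at high glucose, and that of NDC80 to SPC24 was 1.46 to 1.65 and 2.80 to 3.50, so none of the 3 ratios overlapped between groups. NUF2 and SPC25 rested on fewer reads than most of the 51 genes, with an estimated 122 and 90.0 reads in their lowest libraries against a median of 481.

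The other centromere and kinetochore genes rose. CENPA, the histone variant that marks centromeres, was at 25.1 ± 0.517 and 36.8 ± 2.76 CPM (log2 change 0.53). CENPF was at 164, 179, 178 and 176 CPM at low glucose and 220, 300, 299 and 326 CPM at high glucose (log2 change 0.70, SE 0.12, adjusted p = 0.00246, and 0.82 without high glucose replicate 1). The kinesin CENPE was at 28.7 ± 2.47 and 48.6 ± 7.59 CPM (log2 change 0.73, and 0.83 without that library). In CENPF high glucose replicate 1 lay well below the other 3 but above every low glucose library. Among 31 further kinetochore and centromere genes, 14 rose, 3 fell and 14 did not pass, with a median log2 change of 0.05. All 31 had a mean of at least 5 CPM, and 33.6% of all genes at that level rose. HJURP, which loads CENPA, rose from 42.7 to 79.8 CPM (log2 change 0.88), and the 3 that fell were KNTC1 (−0.52), CENPH (−0.45) and CENPP (−0.33).

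Beside CENPE, 7 kinesins were in the set, and 6 of them rose. KIF14, a motor of cytokinesis, rose from 28.4 ± 0.881 to 56.4 ± 7.04 CPM (log2 change 0.96, adjusted p = 1.2e-04, and 1.04 without high glucose replicate 1). KIF4A, which moves on chromosomes and the central spindle, rose from 36.0 ± 2.21 to 67.1 ± 5.64 CPM (0.88). Of its transcript's 31-base words, 29.1% are shared with other genes, most often KIF4B. KIF18A (0.66), the microtubule depolymerase KIF2C (0.56), KIF23 of the central spindle (0.55) and the bipolar spindle motor KIF11 (0.39) had smaller log2 changes. KIF20A, a motor of the central spindle, was at 30.8, 28.2, 28.2 and 26.2 CPM at low glucose and 30.8, 31.01, 37.8 and 32.6 CPM at high glucose (log2 change 0.21, SE 0.08, adjusted p = 0.0543). High glucose replicate 3 was its highest library, and its adjusted p was 0.0498 without high glucose replicate 1 and 0.0432 without low glucose replicate 1.

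The spindle-associated proteins all rose, 6 of 6, with a median log2 change of 0.64. NUSAP1, which bundles microtubules near chromosomes, rose from 76.9 to 145 CPM (log2 change 0.91, adjusted p = 5.2e-06). The annotation holds a readthrough gene on the same strand that overlaps 97.8% of its exons, so its reads cannot be assigned to it alone. PRC1, the bundler of the central spindle whose promoter is printed above, rose from 62.7 ± 2.42 to 98.4 ± 4.43 CPM (log2 change 0.64), with 88.4% of its exons overlapped by other genes on the same strand and 38.8% on the opposite strand. HMMR (0.63) and DLGAP5 (0.57) had similar log2 changes. ASPM, a spindle pole protein with one of the longest transcripts of the set, was at 65.4, 68.7, 69.8 and 68.1 CPM at low glucose and 82.8, 124, 134 and 136 CPM at high glucose (log2 change 0.78, SE 0.16, adjusted p = 0.00534), and its log2 change was 0.94 without high glucose replicate 1, the lowest of its group.

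The cytokinesis genes had the second highest median log2 change of the 10 roles, 0.79. ANLN, the anillin scaffold of the contractile ring, was at 143, 141, 146 and 145 CPM at low glucose and 266, 282, 299 and 305 CPM at high glucose (log2 change 0.996, SE 0.04, adjusted p = 4.8e-06, and 1.03 without high glucose replicate 1). ECT2, the exchange factor that activates RhoA at the furrow, rose from 43.5 ± 2.62 to 76.0 ± 1.99 CPM (0.79), and RACGAP1 from 69.5 ± 2.69 to 114 ± 3.08 CPM (0.71). RACGAP1 and the kinesin KIF23 form centralspindlin together, and their ratio overlapped between the groups (KIF23 over RACGAP1 was 0.564 to 0.673 at low and 0.523 to 0.598 at high glucose).

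The genes of chromosome structure rose by similar amounts. TOP2A, the topoisomerase that untangles sister chromatids, rose from 234 ± 5.21 to 358 ± 22.8 CPM, and the condensin subunits NCAPG and NCAPH from 40.5 to 62.1 CPM and from 22.9 to 35.3 CPM, with log2 changes of 0.61, 0.60 and 0.60. The ratio of NCAPG to NCAPH overlapped between the groups. LCORL, on the opposite strand, overlaps 35.6% of the NCAPG exons, and 40.2% of the 31-base words of NCAPG are shared with other genes. MKI67, the coat of mitotic chromosomes whose protein Ki-67 is the clinical proliferation marker, was at 132, 130, 128 and 124 CPM at low glucose and 141, 220, 247 and 262 CPM at high glucose (log2 change 0.71, SE 0.19, adjusted p = 0.0167). Its 4 low glucose libraries were tightly grouped, while high glucose replicate 1 lay only just above them, and without that library the log2 change was 0.91.

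Both activators of late cell cycle transcription in the set rose, and their median log2 change of 0.82 was the highest of the 10 roles. FOXM1 was at 35.0, 32.4, 31.9 and 34.4 CPM at low glucose and 57.2, 55.4, 59.7 and 62.5 CPM at high glucose (log2 change 0.79, SE 0.05, adjusted p = 1.5e-05). MYBL2, which encodes B-MYB, was at 65.8, 69.4, 69.3 and 68.0 CPM at low glucose and 131, 126, 123 and 110 CPM at high glucose (log2 change 0.84, SE 0.05, adjusted p = 2.0e-05). The groups were far apart in both genes. Of the 51 genes, 11 overlap exons of a gene on the opposite strand and 10 share over 20% of their 31-base words with other genes. These 10 include AURKA, CDC20, SPC25 and NCAPG. ITFG2, on the opposite strand, overlaps 22.0% of the FOXM1 exons, and the use of strand in the counting of this table is not given in the sources used here.

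Among 18 genes of MuvB, its DREAM partners and the E2F family, 12 rose, 2 fell and 4 did not pass, with a median log2 change of 0.45. The MuvB subunits LIN52 (28.6 to 77.3 CPM, log2 change 1.41), LIN54 (25.8 to 46.2 CPM, 0.82) and LIN9 (17.1 to 25.0 CPM, 0.52) rose, while LIN37 was at 24.8 and 23.1 CPM (−0.09, adjusted p = 0.395) and RBBP4 at 212 and 216 CPM (0.02, adjusted p = 0.46). RBL2, which encodes p130, fell from 30.1 to 15.9 CPM (log2 change −0.89, adjusted p = 1.9e-04), and RBL1, which encodes p107, rose from 11.8 to 18.8 CPM (0.62). TFDP2, a dimer partner of E2F proteins, was the other gene that fell (−0.38). The 30 members with at least 1 promoter that held both a CHR and a CCAAT match had a median log2 change of 0.64, and 28 of them rose. The 14 members without a single promoter that held both had a median of 0.49, and 12 of them rose. CDC25B, whose matches lie at different start sites, is among these 14.

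**Figure D3:**
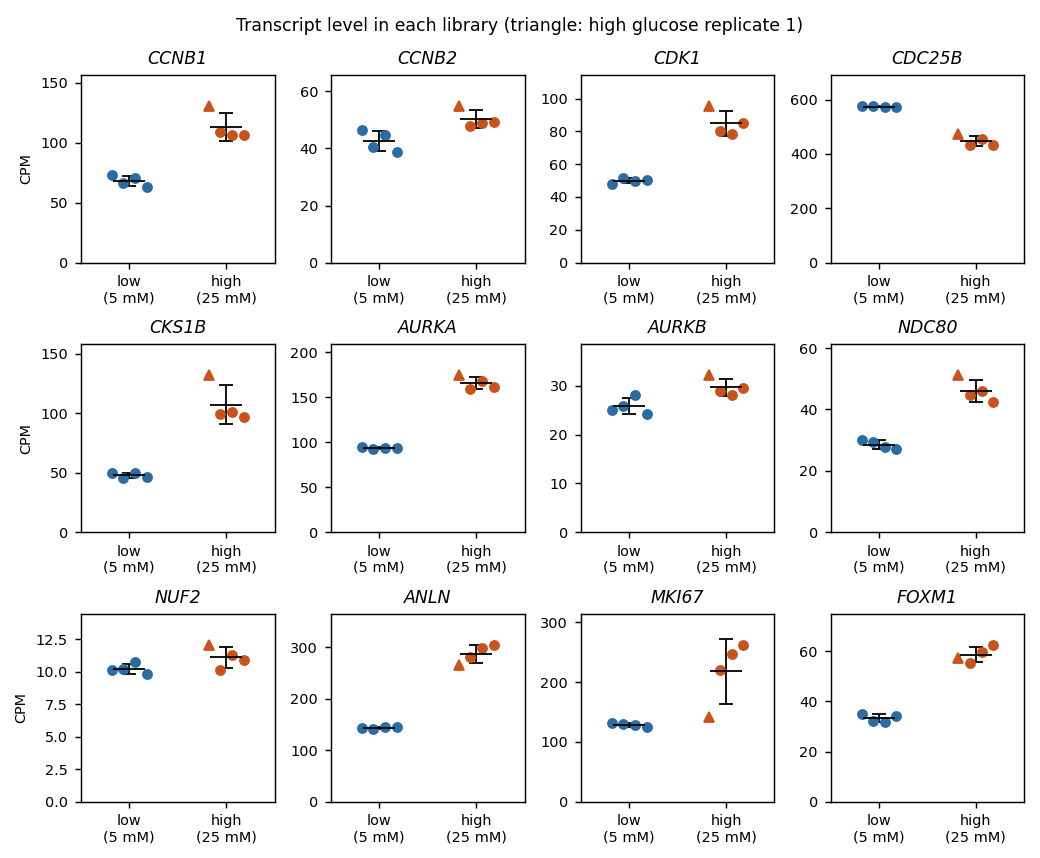
The level in CPM (y axis, from 0) of 12 of the genes in each low glucose (5 mM) and high glucose (25 mM) library, with the group mean and bars of 1 SD. The triangle is high glucose replicate 1. CDC25B was lower in all 4 high glucose libraries, NUF2 overlapped between groups, and in MKI67 the triangle lay at 141 CPM, below the other 3 high glucose libraries at 220 to 262 CPM.

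How far high glucose replicate 1 departed from its group followed transcript length. This library was set aside because long transcripts were known to be low in it, so the values that follow describe that observation in the 51 genes and are no separate support for it. This library was the highest of the 4 for 24 of the 51 genes, with a median canonical transcript of 2031 bases, and the lowest for 19, with a median of 4587 bases. Its log2 level relative to the mean of the other 3 was −0.78 for MKI67, −0.66 for ASPM, −0.49 for CENPF, −0.41 for CENPE and −0.34 for KIF14, and 0.41 for CKS1B, 0.33 for SPC25 and 0.29 for CKS2. For the 11 genes under 2000 bases its median was 0.23, and for the 9 over 5000 bases it was −0.34. Across the 51 genes, which share this library and its depth, Spearman's rho between length and this departure was −0.83, against −0.26 to 0.23 for the 4 low glucose libraries measured in the same way. It was 0.53, 0.63 and 0.55 for high glucose replicates 2, 3 and 4, whose comparison means include replicate 1. Over 11223 genes of the table it was −0.65 for high glucose replicate 1. RNA integrity of the libraries is not given in the sources used here, and its part in the result was not tested.

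The rise of the 51 genes as a set moved little with this library, but its pattern over length did. The median log2 change of the genes under 2000 bases was 0.53 with all libraries, 0.48 without high glucose replicate 1 and 0.61 with the length trend removed. For those over 5000 bases it was 0.70, 0.82 and 0.70. The correlation of the log2 change with length across the 51 genes (Spearman's rho) was 0.10 with all libraries, 0.25 without high glucose replicate 1 and −0.03 with the length trend removed. Without this library the median coefficient of variation of the 51 genes at high glucose was 4.27% in place of 6.81%, beside 4.43% at low glucose.

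**Figure D4:**
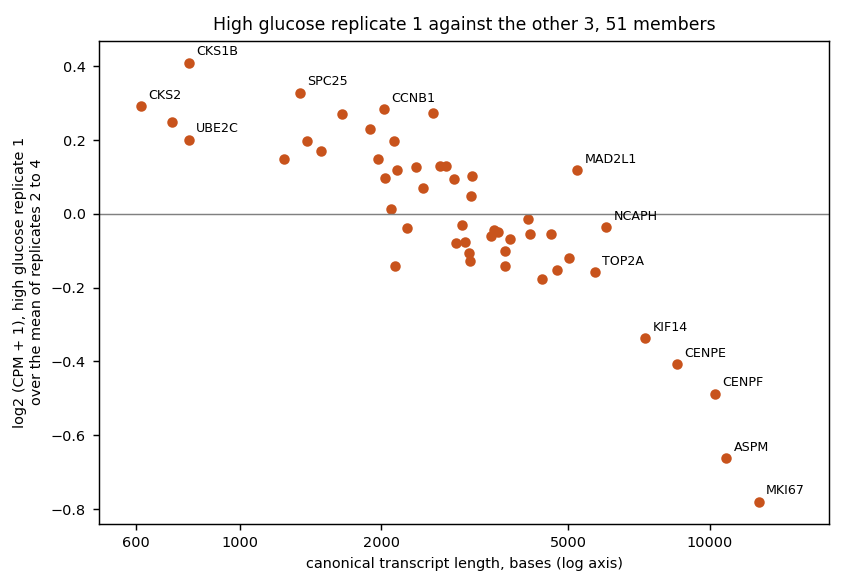
The log2 level of CPM + 1 in high glucose replicate 1 relative to the mean of the other 3 high glucose libraries (y axis) against canonical transcript length in bases (x axis, log scale) for the 51 genes, each a point. Short transcripts such as CKS1B lay above 0 (0.41) and long ones such as MKI67 below (−0.78).

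Genes of earlier cell cycle phases and of neighbouring mitotic machinery were compared as lists beside the 51. In all, 178 such genes in 8 lists, including those already described, were tested in the same fit. For comparison with each list, 22.0% of all genes rose and 24.8% fell, and 33.6% of genes of at least 5 CPM rose. When only the 11297 genes of at least 5 CPM were fitted, 4077 fell. Of 36 further G2/M and spindle genes, 28 rose, 1 fell (ENSA, log2 change −0.17) and 7 did not pass, with a median log2 change of 0.42, and CDCA2 (10.9 to 22.3 CPM, 0.97) and SHCBP1 (0.87) had large rises. Of 18 condensin and cohesin genes 14 rose and none fell, with a median of 0.34. SGO1, the protector of centromeric cohesion, rose from 9.84 to 20.2 CPM (0.97), the cohesion factor CDCA5 from 39.7 to 71.3 CPM (0.83), and ESPL1, the separase held back by securin, from 21.0 to 33.0 CPM (0.63). Of 11 centriole duplication genes 5 rose, among them the master kinase PLK4 (16.6 to 25.5 CPM, 0.59), and 2 fell, CETN2 (41.3 to 22.1 CPM, −0.88) and NEDD1 (−0.34). The count of 5 was 2 or 3 when any library but high glucose replicate 1 was left out, and the 1 fall among the further G2/M genes was lost in 6 of these fits.

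Of 32 DNA replication genes, which mark S phase, 20 rose, 3 fell and 9 did not pass, with a median log2 change of 0.38. CHAF1A (25.4 to 55.1 CPM, 1.08), ORC6 (1.02) and PCNA (88.0 to 152 CPM, 0.78) rose, and those that fell included PRIM1 (−0.28) and MCM6 (−0.18). The count that fell was 1 when low glucose replicate 1, 2 or 3 or high glucose replicate 3 was left out. Of 15 genes that govern G1, 8 rose, 3 fell and 4 did not pass, with a median of 0.38. The risers included CDK2 (35.7 to 70.7 CPM, 0.97) and also CDK inhibitors, CDKN1A (p21) at 33.4 ± 2.30 and 78.6 ± 10.2 CPM (1.21, adjusted p = 5.4e-05) and CDKN2D (p19) at 10.7 and 26.9 CPM (1.25). The genes that fell were CDKN2B (−0.69), CDK6 (−0.38) and CDKN1C (−0.19), and the count that fell was 1 without low glucose replicate 4. With all libraries, each of the 8 lists had a smaller share of genes that rose than the 51 mitosis and G2/M genes, but without high glucose replicate 1 the share was larger for condensin and cohesin (17 of 18, beside 47 of 51). Differences between lists were not tested.

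**Figure D5:**
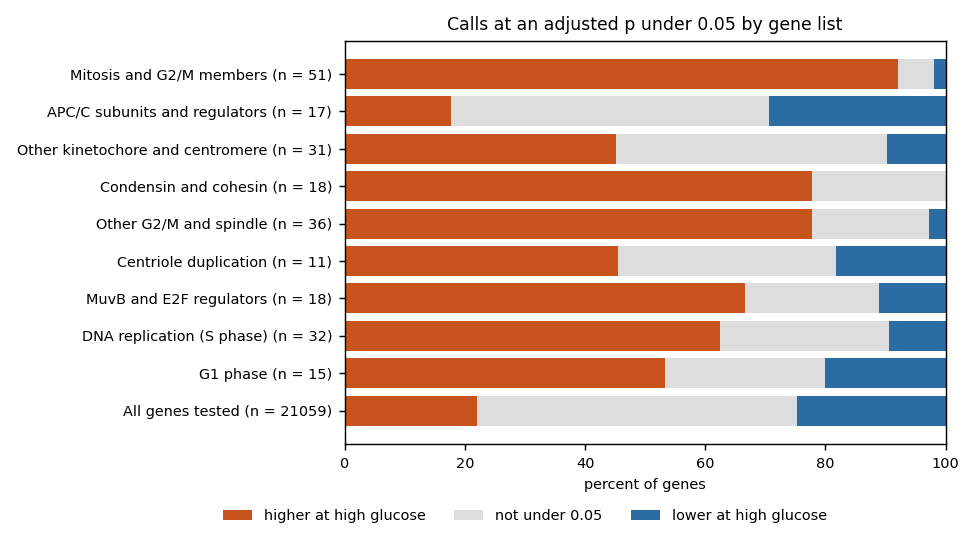
The percent of genes (x axis) in the 51 mitosis and G2/M genes, in each of the 8 other lists and in all 21059 genes that rose (orange), fell (blue) or did not pass an adjusted p of 0.05 (grey) at high glucose. Of the 51 genes 47 rose, whereas among the 17 APC/C subunits and regulators 3 rose and 5 fell.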

How the data were processed

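RNA was sequenced on an Illumina HiSeq from 4 low and 4 high glucose libraries, grouped by their labels. The authors deposited 1 table of CPM, scaled with trimmed mean of M values factors from edgeR. The submitters' processing notes name hg38, while the study's methods, written first for tumors, name Trimmomatic, TopHat, hg19 and Ensembl; the counting tool is not given in the sources used here. Only 72.2% to 74.0% of low values (tolerance 0.01 step) were whole multiples of 1 read, so counts were not recovered and estimated depths and floors (3 reads) cover counting error only.

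Of 21077 lines, 18 Y copies of pseudoautosomal genes, identical to their X copies, were left out. The other 21059 genes were fitted as log2(CPM + 1) with limma 3.58.1 in R 4.3.3 (lmFit, eBayes with trend, 2-sided, no covariate), adjusted by Benjamini-Hochberg over all genes, with a threshold of 0.05. The steps were tested on simulated data. Lengths and overlaps came from GENCODE 44 mapped to GRCh37, and shared words are of 31 bases. The 51 genes and the other lists were chosen with earlier results of these data known. All 51 could be named, and from each other list the 3 genes with the largest called change at 5 CPM or more. Other genes were named after their values were seen. The 17 alternatives tried cover the pseudocount, filters on low values, scaling, transcript length, a replicate block, the variance trend and each library left out. Of the genes that the text would otherwise name, 1 is not reported here.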

Additional observations from a re-analysis of the deposited data

Results flagged for a closer look

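In 5 of 102 groups of 4 libraries (51 genes in 2 groups), 1 library lay so far from the others that its gap to the nearest took up more of the whole range than Dixon's critical value for 4 values allows. Chance gives about 5.1 such groups. For CCNB1, high glucose replicate 1 was the highest of its group at 131 CPM, with a gap of 0.891 of the range, and for CKS1B the same library was the highest at 132 CPM, with a gap of 0.867. For CENPA, low glucose replicate 3 was the highest at 25.9 CPM (0.938). For KIF23, low glucose replicate 2 was the lowest at 41.1 CPM (0.832). For NCAPH, high glucose replicate 2 was the highest at 36.99 CPM (0.922). Both genes flagged for high glucose replicate 1 have transcripts of at most 2029 bases, and this library was high for most short transcripts of the set.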

How the results depend on the processing

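Across 17 alternatives, the count of the 51 genes that rose was 45 to 48, 1 fell in each, and the median log2 change was 0.59 (quantile normalization) to 0.67 (median-of-ratios scaling). For 45 of the 51 genes each alternative gave the same direction and side of the threshold. With low glucose replicate 2 or 4 or high glucose replicate 1 left out, CCNB2 had a log2 change of 0.19 to 0.21 (adjusted p from 0.0503 to 0.0681), and with quantile normalization 0.18 (0.0869). CDC25C had an adjusted p of 0.0512 (log2 change 0.29) without high glucose replicate 4. AURKB had a log2 change of 0.17 to 0.20 without the replicates named in the report. NUF2 passed only with quantile normalization (0.21, adjusted p = 0.0184). KIF20A passed with a mean of at least 1 CPM (0.0254) or 5 CPM (0.0239), median-of-ratios scaling (0.25, 0.0306) and equal totals (0.24, 0.0407). It also passed with the length trend removed (0.20, 0.0268), a fit that holds the 1 CPM filter too. With low glucose replicate 1 (0.25, 0.0432) or high glucose replicate 1 (0.24, 0.0498) left out, KIF20A passed as well. The log2 change of SPC25 reversed to −0.02 when low glucose replicate 3, to −0.0775 when high glucose replicate 1 and to −0.0427 when high glucose replicate 4 was left out, with a range of −0.0775 to 0.0875 over the libraries left out and no adjusted p near the threshold. Among the lists, the replication genes that fell went from 3 to 0 with median-of-ratios scaling or equal totals, the 1 further G2/M gene that fell to 0 with median-of-ratios scaling or the replicate block, and the APC/C genes that rose from 3 to 5 with the length trend removed. With 1 library left out, 2 to 5 centriole genes rose and 3 to 5 APC/C genes, 0 to 1 further G2/M genes, 1 to 3 replication genes and 1 to 3 G1 genes fell. The cause of these shifts was not tested.

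Libraries with the same replicate number did not deviate together (correlations of 0.07, −0.03, 0.01 and −0.04 over 11297 genes), so the numbers were not taken to pair them. With the replicate block, 46 of the 51 genes rose, 1 fell and AURKB had an adjusted p of 0.0910, and over all genes 4275 rose and 4646 fell, against 4636 and 5213 without it.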
